A study of Mus musculus with 20 samples.

Results

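The protein-coding genes Ehd4, Gpx3, Gimap4, Serpinf1 and Tbx2 were followed through the hippocampus of 20 mice. They were selected on their counts, which were higher in Pool 2 than in Control mice. These are 5 of the 25190 genes in the count table, of which 16756 are annotated as protein-coding. Since these values chose the genes, the difference between those groups is given as a description, with no test. All mice were wild-type C57BL/6JOlaHsd males aged 4 months, and all received bilateral infusions through cannulas into the dorsal hippocampus. The Vehicle group was infused with artificial cerebrospinal fluid, the Control group with small RNAs (sRNAs) extracted from post-mortem hippocampus of control individuals, and the Pool 1 and Pool 2 groups with sRNAs from different cohorts of patients with schizophrenia. Each group held 5 mice, and every mouse of a sRNA group received the same mixture, so the spread between mice is not a spread between donors. Tissue was taken 24 hours after the last behavioural test. Its source is named as hippocampus in the sample labels and as CA1 in the description of the series.

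Ehd4 encodes an ATPase of the EH-domain family, which shapes the membrane of early endosomes and sorts receptors for recycling or degradation. Gpx3 encodes the secreted, selenium-containing glutathione peroxidase of plasma, which reduces peroxides outside cells. Gimap4 belongs to the GTPases of immunity-associated proteins, best known from lymphocytes, and Serpinf1 encodes pigment epithelium-derived factor (PEDF), a secreted serpin that inhibits no protease but limits vessel growth and supports neurons. Tbx2 encodes a T-box transcription factor that mostly represses its targets and is known from the development of heart, limb and retina.

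The genes lie on 3 chromosomes of the mouse genome (GRCm38). Gpx3 (chr11:54902453-54910377), Serpinf1 (chr11:75409769-75422701) and Tbx2 (chr11:85832551-85841948) are on chromosome 11, which holds 7.05% of all genes in the table, Ehd4 is on chr2:120089175-120154606 and Gimap4 on chr6:48684549-48692060. None of the 5 overlaps another gene of the table. RefSeq promoters (GRCm38.p6), running from 250 bases before to 50 bases after the start site, matched 4 of the 5 genes. Those of Ehd4 and Gpx3 are printed because they are the pair with the rarest run of shared letters. They are written 5′ to 3′ on the strand of the gene, with the letters CCAAT, or ATTGG where the match is on the opposite strand, in capitals.
Ehd4 (chr2:120154526-120154825, minus strand): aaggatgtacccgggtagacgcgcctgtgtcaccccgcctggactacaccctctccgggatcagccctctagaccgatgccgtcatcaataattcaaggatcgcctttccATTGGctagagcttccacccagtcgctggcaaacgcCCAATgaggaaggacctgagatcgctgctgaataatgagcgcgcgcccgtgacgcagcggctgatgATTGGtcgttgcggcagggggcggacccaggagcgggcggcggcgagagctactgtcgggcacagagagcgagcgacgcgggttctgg
Gpx3 (chr11:54902604-54902903, plus strand): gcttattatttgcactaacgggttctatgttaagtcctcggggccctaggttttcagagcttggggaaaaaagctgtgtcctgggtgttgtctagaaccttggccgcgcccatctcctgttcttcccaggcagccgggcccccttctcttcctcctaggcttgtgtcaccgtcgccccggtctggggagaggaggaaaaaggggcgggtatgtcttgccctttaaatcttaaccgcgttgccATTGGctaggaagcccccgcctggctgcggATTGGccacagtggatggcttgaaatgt
Both hold the 11-base run CCATTGGCTAG, which occurs in 19 of the 32851 promoters of the RefSeq table (0.0578%). This run was picked as the rarest over the pairs of the 4 promoters, so its share is not the chance of such a match. Gpx3 and Serpinf1 also shared an 11-base run, GGGAGAGGAGG, which occurs in 110 promoters (0.335%). The Ehd4 promoter held 3 CCAAT matches, beginning 140, 104 and 38 bases before the start site. The Gpx3 promoter held 2, beginning 8 bases before and 22 bases after it. The Gpx3 window, from base 54902604, lies inside the gene as placed above (from base 54902453), so these offsets hold for the RefSeq start site. Serpinf1 held 3 CCAAT matches, whereas Gimap4 held none. Over all promoters, 37.4% held at least 1 such match on either strand. GGGCGG, the GC box, was found at 2 positions in Ehd4 and 1 in Gpx3, with no overlap with a CCAAT match, and in 35.7% of all promoters. TATAAA (13.6% of all promoters), TTCNNNGAA (8.3%), CACGTG (7.15%) and GAAA followed after any 2 bases by GAAA (3.44%), searched on both strands, were found in none of the 4 promoters. These matches describe letters in a window and not sites that were shown to be bound.

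Levels are given as CPM (counts-per-million), the deposited counts divided by the library size after TMM normalization. Library totals ran from 20588280 to 25543939 counts, and 3 counts, taken as the floor, correspond to 0.117 to 0.146 CPM. The summed level of the 12 markers of hippocampal neurons lay between 8090 and 11200 CPM in every mouse. No other tissue was there for comparison, so this sum does not check the tissue label. One library of the raised group stood apart in immune and glial transcripts. The 15 genes of the interferon response summed to 270 CPM in Pool 2 replicate 1 and to 44.2 to 70.6 CPM in the rest of its group. For the 12 microglial markers the sum was 1660 CPM in that mouse and 496 to 786 CPM in the rest. Values are therefore given with and without this mouse.

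Per length, the 5 genes differed widely in abundance. The Control mean was 4.83 ± 0.592 CPM per kilobase of exon for Serpinf1 (SD, n = 5), 1.71 ± 0.0839 for Ehd4, 0.891 ± 0.229 for Gpx3, 0.402 ± 0.113 for Tbx2 and 0.137 ± 0.103 for Gimap4. In Pool 2, Ehd4 (2.66 ± 0.441 CPM per kilobase) and Gpx3 (2.52 ± 0.555) differed by less than their spread.

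**Figure D1:**
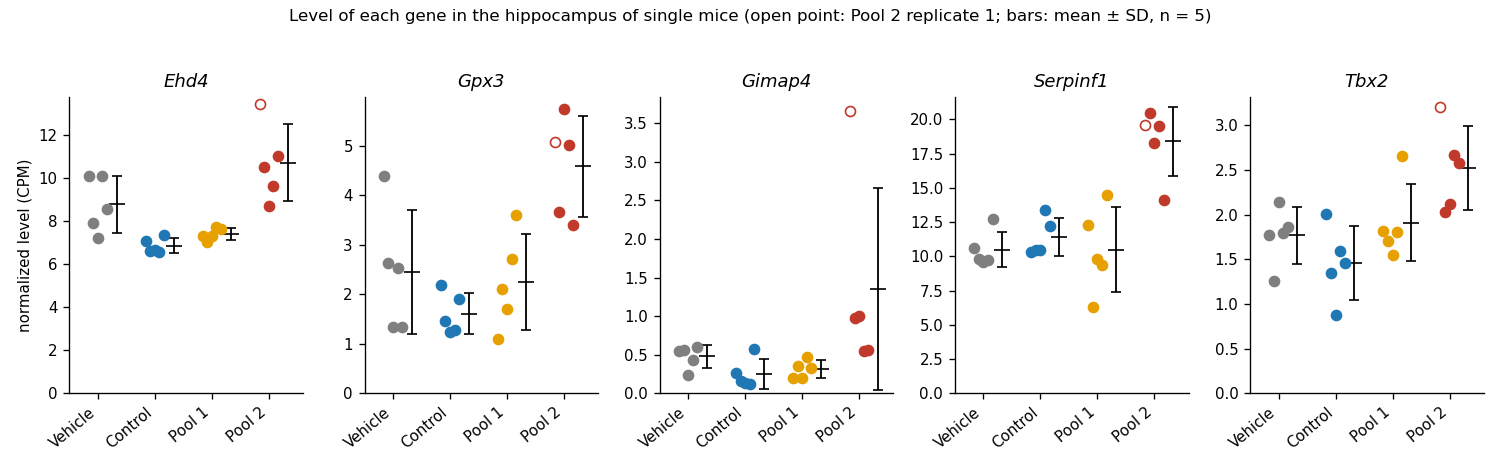
Normalized level in CPM (vertical axes, starting at 0) of the 5 genes in each of 20 mice by group. Each point is 1 mouse, the open point is Pool 2 replicate 1, and the black marks are the mean ± SD of 5 mice. For Ehd4, Gpx3, Serpinf1 and Tbx2, every Pool 2 point lies above every Control point, while Gimap4 has a Control mouse at 0.575 CPM, above Pool 2 mice at 0.543 and 0.558.

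The endosomal gene Ehd4 had a Pool 2 mean of 1.56 times the Control mean, and the Vehicle mean lay between them. Its level in replicates 1 to 5 was 13.4, 10.5, 8.71, 9.64 and 11.0 CPM in Pool 2 and 7.06, 6.62, 6.67, 6.56 and 7.34 CPM in Control. It was 10.1, 7.88, 7.19, 10.1 and 8.56 CPM in Vehicle and 7.32, 7.04, 7.28, 7.71 and 7.64 CPM in Pool 1. Control and Pool 1 mice thus stayed in narrow and overlapping bands, and the lowest Pool 2 mouse stood above all 10 of them, but below 2 of the 5 Vehicle mice. The group means were 10.7 ± 1.77 in Pool 2, 8.76 ± 1.30 in Vehicle, 7.40 ± 0.277 in Pool 1 and 6.85 ± 0.336 in Control (SD, n = 5), and the ranges of neighbours in this order overlapped. The fitted log2 fold change in Pool 2 was 0.64 (SE 0.12) against Control, 0.53 (SE 0.12) against Pool 1 and 0.28 (SE 0.12) against Vehicle. Without Pool 2 replicate 1, which was the highest of the 20 mice, these values were 0.54, 0.43 and 0.19. In bulk tissue, fewer cells of a type and less RNA per cell cannot be told apart, here and for every gene below.

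Gpx3, the secreted peroxidase, differed from Control by a larger factor, and Pool 2 replicate 1 was not its highest mouse. Pool 2 mice held 5.07, 3.66, 5.75, 5.01 and 3.39 CPM, and Control mice 2.19, 1.47, 1.24, 1.27 and 1.90 CPM. Vehicle mice held 4.38, 2.64, 1.33, 2.54 and 1.35 CPM, and Pool 1 mice 1.09, 2.11, 1.70, 2.71 and 3.61 CPM. One Vehicle mouse and 1 Pool 1 mouse therefore reached into the Pool 2 range, and the other 13 mice outside Pool 2 lay below it. The means were 4.58 ± 1.01 in Pool 2, 2.45 ± 1.25 in Vehicle, 2.25 ± 0.967 in Pool 1 and 1.61 ± 0.416 in Control (SD, n = 5), so the last 3 groups differed by less than the spread in Vehicle. The Pool 2 mean was 2.83 times the Control mean, and 2.76 times without Pool 2 replicate 1. The log2 fold change in Pool 2 was 1.50 (SE 0.31) against Control, 1.02 (SE 0.30) against Pool 1 and 0.90 (SE 0.30) against Vehicle, and leaving out replicate 1 gave 1.46, 0.98 and 0.86. The markers of choroid plexus, a neighbouring epithelium, varied more than any other list between mice. Their sum was highest in Vehicle replicate 4 (9200 CPM), Control replicate 3 (2350 CPM) and Pool 2 replicate 3 (1520 CPM), in which Gpx3 was at 2.54, 1.24 and 5.75 CPM. In the 4 other Pool 2 mice that sum lay between 102 and 261 CPM, inside the Control range of 126 to 2350 CPM but for the lowest, while Gpx3 lay between 3.39 and 5.07 CPM. The part of this tissue in the Gpx3 values was not tested.

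Gimap4, the lymphoid GTPase, had the largest fold change of the 5 and rested on the fewest reads. Pool 2 mice held 3.66, 0.974, 1.00, 0.543 and 0.558 CPM, from 80, 25, 24, 13 and 13 counts. Control mice held 0.268, 0.159, 0.138, 0.119 and 0.575 CPM, from 6, 4, 3, 3 and 13 counts. In these numbers 3 of 5 Pool 2 mice exceeded every Control mouse, and the other two were level with Control replicate 5. Vehicle mice held 0.548, 0.563, 0.242, 0.439 and 0.605 CPM, and Pool 1 mice 0.202, 0.359, 0.194, 0.474 and 0.332 CPM, the latter all below Pool 2. The mean was 1.35 ± 1.31 CPM in Pool 2 over all 5 mice and 0.769 ± 0.252 CPM over the 4 without replicate 1, against 0.479 ± 0.146 in Vehicle, 0.312 ± 0.117 in Pool 1 and 0.252 ± 0.190 in Control. The ratio of the Pool 2 to the Control mean was 5.35 with replicate 1 and 3.05 without it. On the fitted scale the log2 fold change fell from 2.40 (SE 0.51) to 1.61 (SE 0.41) against Control, from 2.08 (SE 0.50) to 1.29 (SE 0.40) against Pool 1 and from 1.48 (SE 0.47) to 0.68 (SE 0.39) against Vehicle. Without Control replicate 5, the value against Control was 2.94.

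Serpinf1, which encodes PEDF, was higher in each Pool 2 mouse than in any Control or Vehicle mouse. Its level was 19.6, 20.5, 18.3, 19.5 and 14.1 CPM in Pool 2 and 10.3, 10.5, 10.5, 13.4 and 12.2 CPM in Control. In Vehicle it was 10.6, 9.83, 9.61, 9.74 and 12.7 CPM, and in Pool 1 12.3, 6.32, 9.80, 9.39 and 14.5 CPM. Of the 15 mice outside Pool 2, Pool 1 replicate 5 was the only one above a Pool 2 mouse. Means were 18.4 ± 2.51 in Pool 2, 11.4 ± 1.40 in Control, 10.5 ± 1.29 in Vehicle and 10.5 ± 3.10 in Pool 1 (SD, n = 5), and the last 3 differed by less than their spread. The log2 fold change in Pool 2 was 0.69 (SE 0.16) against Control and 0.81 (SE 0.16) against each of Vehicle and Pool 1. Leaving out Pool 2 replicate 1 moved these values to 0.67 and 0.79.

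Tbx2, the T-box repressor, was higher in Pool 2 than in Control mice by a smaller margin between single mice. Pool 2 mice held 3.20, 2.03, 2.12, 2.67 and 2.58 CPM and Control mice 2.01, 1.35, 0.875, 1.59 and 1.46 CPM. Vehicle mice held 1.77, 1.26, 2.14, 1.80 and 1.86 CPM and Pool 1 mice 1.82, 1.70, 1.55, 1.81 and 2.66 CPM. The lowest Pool 2 mouse stood only just above the highest Control mouse, 1 Vehicle mouse exceeded 2 Pool 2 mice, and Pool 1 replicate 5 exceeded 3 of them. Means were 2.52 ± 0.471 in Pool 2, 1.91 ± 0.432 in Pool 1, 1.77 ± 0.320 in Vehicle and 1.46 ± 0.411 in Control (SD, n = 5), with overlap between neighbours in that order. The log2 fold change in Pool 2 was 0.79 (SE 0.22) against Control, 0.40 (SE 0.21) against Pool 1 and 0.51 (SE 0.22) against Vehicle, and 0.69, 0.30 and 0.41 without replicate 1.

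Over the 5 genes, the Pool 2 and Control ranges did not overlap in 4 with all mice, and 0.77% of all genes were separated in that direction. Without Pool 2 replicate 1 they were the same 4, against 1.06% of all genes. This is the contrast that chose the genes, so nothing is read from these counts. Against Vehicle, Serpinf1 alone had no overlap (0.401% of all genes with Pool 2 higher), and against Pool 1, Ehd4 and Gimap4 had none (0.977%). These comparisons share the Pool 2 mice that chose the genes.

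**Figure D2:**
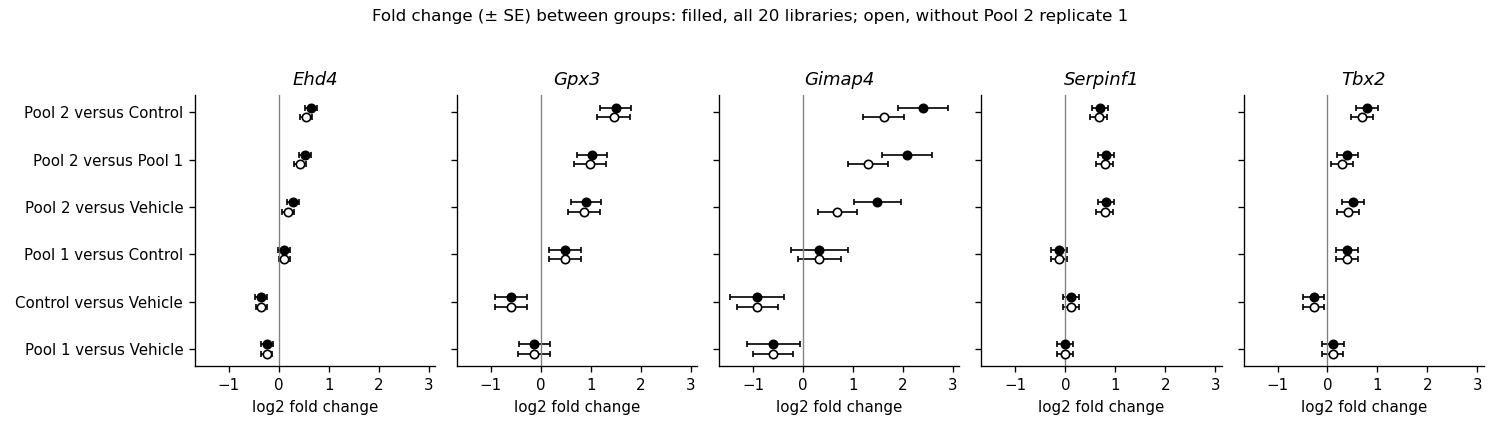
Fitted log2 fold change (horizontal axis) with its SE for the 5 genes in 6 comparisons of groups, the first-named group minus the second. Filled points use all 20 libraries and open points leave out Pool 2 replicate 1, which moves Gimap4 against Control from 2.40 to 1.61 and Serpinf1 from 0.69 to 0.67.

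The Control mice were low for 4 of the 5 genes in comparison with the infusion of fluid alone. Control minus Vehicle gave a log2 fold change of −0.35 (SE 0.12) for Ehd4, −0.60 (SE 0.32) for Gpx3, −0.92 (SE 0.54) for Gimap4 and −0.28 (SE 0.22) for Tbx2, but 0.12 (SE 0.16) for Serpinf1. Pool 2 minus Vehicle was therefore smaller than Pool 2 minus Control for each of those 4 genes and larger for Serpinf1. Pool 1 minus Control was 0.11 (SE 0.12) for Ehd4, 0.48 (SE 0.32) for Gpx3, 0.32 (SE 0.57) for Gimap4, −0.12 (SE 0.16) for Serpinf1 and 0.39 (SE 0.22) for Tbx2. All of these values share Control mice that were chosen low and carry no test.

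Pool 1 against Vehicle is the comparison whose mice played no part in the choice, and none of the 5 genes passed the threshold in it, which asks for a log2 fold change of 0.3 or more in size with an unadjusted p under 0.05. By that rule 1.06% of all genes were higher and 4.28% lower in Pool 1. In Pool 1, Ehd4 had a log2 fold change of −0.24 (SE 0.12), with an unadjusted p of 0.0566 and an adjusted p of 0.806 in edgeR's quasi-likelihood test over all genes, and a two-sided exact permutation test gave p = 0.0476. Its Pool 1 mice lay inside or below the Vehicle range. For Gimap4 the difference was −0.60 (SE 0.53), with an adjusted p of 0.955 in edgeR and an exact permutation p of 0.111. The differences were −0.13 (SE 0.31) for Gpx3, −0.00299 (SE 0.16) for Serpinf1 and 0.11 (SE 0.22) for Tbx2, with adjusted p of 0.991, 1 and 0.990 in edgeR and exact permutation p of 0.857, 0.786 and 0.571. The edgeR spread was estimated over all 4 groups, so Pool 2 replicate 1 enters these edgeR values. Without that mouse edgeR gave −0.24 (SE 0.11) for Ehd4, with an unadjusted p of 0.0401 and an adjusted p of 0.674. For Gimap4 it gave −0.60 (SE 0.40), with an adjusted p of 0.875. With 5 mice against 5 the smallest p the permutations allow is 0.00794, and the permutation values are not adjusted for the number of genes. In the edgeR fit of all 20 libraries, without a replicate block, no gene of the whole table had an adjusted p under 0.05 in any of the 6 comparisons. In that fit 1603 genes had an unadjusted p under 0.05 in Pool 1 against Vehicle and 1939 in Pool 2 against Control. DESeq2 gave 34 and 18 genes with an adjusted p under 0.05.

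The relatives and partners of the 5 genes were read from lists given in full as counts, with the threshold above and over all 20 libraries, in Pool 2 against Control. In that comparison 5.2% of all genes were higher and 1.01% lower, or 3.31% and 1.17% without Pool 2 replicate 1, and the median of all genes was 0.00294 on the log2 scale. Of the 14 EHD proteins and recycling partners, 1 rose, none fell, and their median log2 fold change was 0.01. The gene that rose was Ehd2, which forms rings at the neck of caveolae, with 0.32 (SE 0.14) and an adjusted p of 0.590 in edgeR, and without Pool 2 replicate 1 it was at 0.24 and no longer passed. The closest relatives Ehd1 and Ehd3, which act in recycling to the surface, stood at 0.06 and −0.00 and did not pass.

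Gpx3 had no relative past the threshold in the lists of peroxide-handling genes. None of the 5 measured glutathione peroxidases passed in either direction (median −0.07), with the cytosolic Gpx1 at 0.10 and Gpx4, which reduces lipid peroxides, at −0.09. Gpx2 averaged under 0.1 CPM. None of 16 other enzymes of peroxide and glutathione metabolism passed either (median −0.05).

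The other GIMAP genes had larger fold changes with Pool 2 replicate 1 than without it. Their median log2 fold change over 7 genes was 0.55 with that mouse and 0.17 without it, and over all 20 libraries Gimap3 alone rose, at 1.91 (SE 0.67) with an adjusted p of 0.493 in edgeR. Gimap3 was at 2.61 CPM in Pool 2 replicate 1 and between 0.209 and 0.428 CPM in the other 4 Pool 2 mice, against 0.0447 to 0.486 CPM in Control. Without that mouse its log2 fold change was 0.72 and none of the 7 passed. The summed level of the 7 genes was 13.9 CPM in Pool 2 replicate 1, 5.14 to 7.60 CPM in the other Pool 2 mice and 3.82 to 6.28 CPM in Control. Genes of this family are similar in sequence, so that the division of reads among them is uncertain, and Gimap7 was at 0 in at least 10 libraries.

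Beside Serpinf1, 1 of 13 measured serpins rose and none fell (median −0.09), and 1 of 5 genes named as receptors of PEDF rose. The serpin was Serping1, the inhibitor of complement C1, at 1.11 (SE 0.29) with an adjusted p of 0.450 in edgeR. It was at 25.7 CPM in Pool 2 replicate 1, and without that mouse the value was 0.88 and still past the threshold. The receptor was Plxdc1, a membrane protein of vessels that binds PEDF, at 0.76 (SE 0.20) with an adjusted p of 0.445 in edgeR. Its level was 13.0 ± 3.11 CPM in Pool 2 against 7.66 ± 1.62 CPM in Control (SD, n = 5), and 0.78 was its log2 fold change without replicate 1. Pnpla2, the lipase that also binds PEDF, stood at 0.25 and did not reach the fold threshold.

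Among 11 measured T-box genes 1 rose and none fell (median 0.08). This was Tbx18, a regulator in pericytes and smooth muscle, at 0.72 (SE 0.30) with an adjusted p of 0.572 in edgeR and 0.82 without Pool 2 replicate 1. Tbx3, the nearest relative of Tbx2, was at 0.16 and did not pass. In Pool 1 against Vehicle, none of these relatives beyond 1 glutathione peroxidase, 1 serpin, 1 PEDF receptor and 1 T-box gene passed, the first 3 of them lower in Pool 1. The T-box call depended on the method, since DESeq2 gave 0 higher and 1 lower. A minimum mean count of 10 left 8 of the 11 T-box genes and gave 0 in both directions.

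**Figure D3:**
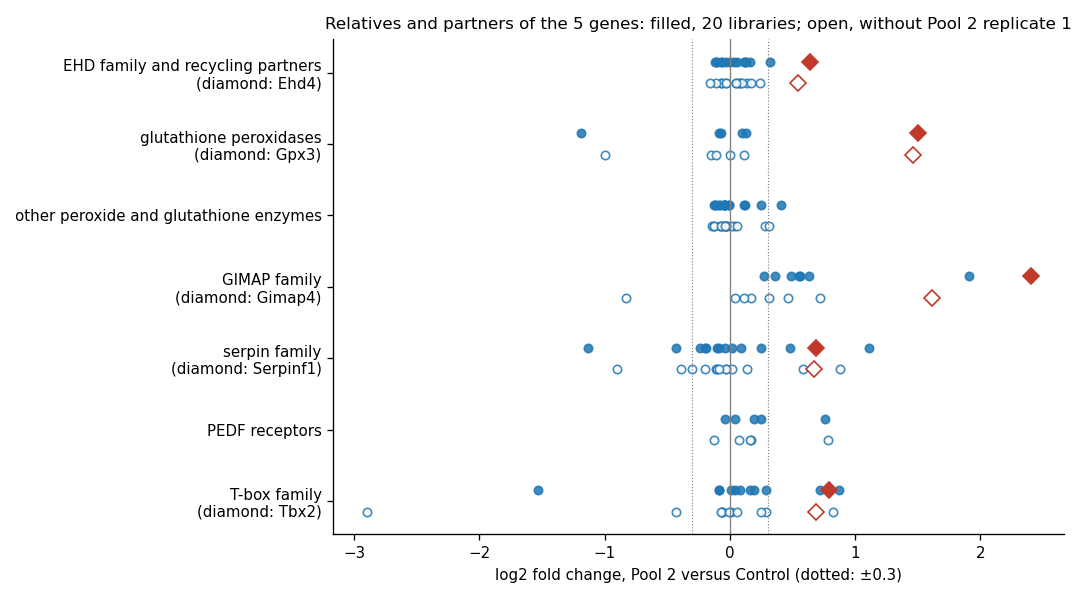
Log2 fold change in Pool 2 against Control (horizontal axis) of the relatives and partners of the 5 genes, 1 row per list. Circles are single genes, diamonds the gene itself, filled with all 20 libraries and open without Pool 2 replicate 1, and dotted lines mark ±0.3. Gimap3, at 1.91 with all libraries and 0.72 without that mouse, is the circle nearest to Gimap4.

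Markers of the cells that could carry these transcripts also differed between Pool 2 and Control, where 5.2% of all genes were higher, or 3.31% without Pool 2 replicate 1. No marker had an adjusted p under 0.05 in edgeR in this comparison. Of 10 markers of mural cells, which are the pericytes and smooth muscle of vessels, 5 rose in Pool 2 against Control and none fell (median 0.38), and 6 rose without Pool 2 replicate 1. Their summed level was 255 to 374 CPM in Pool 2 and 164 to 278 CPM in Control, with no marker near 0. They included Pdgfrb, the pericyte receptor for platelet-derived growth factor, at 0.36, and the smooth muscle actin Acta2 at 0.95. Of 14 markers of leptomeningeal fibroblasts 2 rose (median 0.55), and 4 rose without replicate 1. Their sum was 178 to 319 CPM in the 4 other Pool 2 mice, 149 CPM in replicate 1 and 117 to 165 CPM in Control, and Col1a2, a chain of type I collagen, rose by 0.78. Of 14 endothelial markers 4 rose (median 0.30), but 1 without replicate 1. Their sum was 342 to 478 CPM in Pool 2 and 224 to 396 CPM in Control. In Vehicle the sums were 226 to 279 CPM for mural, 134 to 266 CPM for fibroblast and 304 to 369 CPM for endothelial markers. In Pool 2 against Vehicle, 3 mural, 1 fibroblast and 1 endothelial marker rose and none fell, with 2.8% of all genes higher. Serpinf1 was at 19.6 CPM in Pool 2 replicate 1, whose fibroblast markers lay inside the Control range, and at 9.74 CPM in Vehicle replicate 4, where those markers summed to 266 CPM. That Vehicle mouse also had the highest sum of choroid plexus markers, 9200 CPM, and the part of that tissue in its fibroblast sum was not tested. In Pool 1 replicate 5, the mouse with the highest Serpinf1 and Tbx2 of its group, fibroblast markers summed to 204 CPM, against 115 to 142 CPM in the rest of Pool 1. The part of these cells in the levels of Serpinf1, Tbx2, Plxdc1 and Tbx18 was not tested.

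The immune, glial and blood lists summed highest in Pool 2 replicate 1, the mouse in which Gimap4 stood apart. All 15 genes of the interferon response rose in Pool 2 against Control with it and 4 without it, and their sum in Control mice was 37.5 to 48.9 CPM. For reactive astrocytes 10 of 12 rose with it and 3 without it, for microglia 5 of 12 and none, and for lymphocytes 6 of 14 and 2. Over all genes 5.2% rose with that mouse and 3.31% without it. No gene of these lists had an adjusted p under 0.05 in edgeR in this comparison. Reactive astrocyte markers summed to 1900 CPM in replicate 1, to 747 to 1270 CPM in the other Pool 2 mice and to 670 to 1260 CPM in Control, and microglial markers to 466 to 728 CPM in Control. The summed lymphocyte markers were at 39.7 CPM in replicate 1, at 8.30 to 11.6 CPM in the other Pool 2 mice and at 5.88 to 8.22 CPM in Control, with Ms4a1 and Cd3d under 0.1 CPM on average. In Vehicle the sums were 36.6 to 77.3 CPM for the interferon response and 7.39 to 15.5 CPM for lymphocytes. Without Pool 2 replicate 1, the medians of these lists in Pool 2 were 0.56 and 0.69 against Control, but −0.03 and 0.06 against Vehicle. Red blood cell genes summed to 182 CPM in replicate 1 and to 53.7 to 97.9 CPM in the other 4, with 34.8 to 82.8 CPM in Control, and none of 6 passed. None of the 10 choroid plexus markers passed in Pool 2 against Control, whereas all 10 were lower in Pool 1 than in Vehicle (median −3.03). Without Vehicle replicate 4 and Pool 2 replicate 1, 3 of the 10 were lower (median −1.66). Of the 12 neuronal markers 1 fell in Pool 2 against Control, Neurod6 at −0.42. Whether any of these shares in the values of Gimap4 was not tested.

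**Figure D4:**
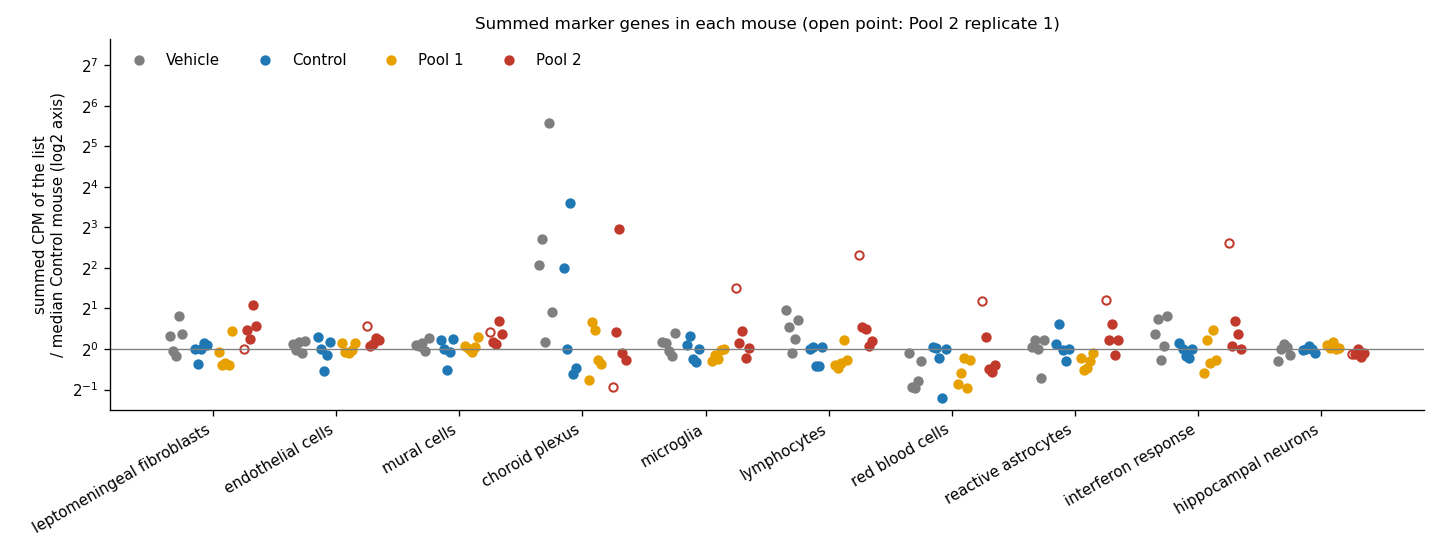
Summed CPM of each marker list in single mice, divided by the value of the median Control mouse (vertical log2 axis), by group. The open point is Pool 2 replicate 1, at 270 CPM for the interferon response and 1660 CPM for microglia, above the other 19 mice for both lists, while choroid plexus markers spread widest, up to 9200 CPM in Vehicle replicate 4.

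Within groups, the correlation between the 5 genes differed from pair to pair, and whether they vary together was not tested. Deviations of log2 CPM from the group mean gave Pearson's r between 0.03 and 0.59 for the 10 pairs of genes over 20 libraries and between −0.01 and 0.52 over 19 without Pool 2 replicate 1. The highest value, for Ehd4 with Gimap4, went from 0.59 to 0.32, and Gpx3 with Gimap4 went from 0.43 to 0.52. Serpinf1 and Gpx3 stood at 0.03 and 0.02. For each gene the 3 most similar genes were taken from 14793 genes with a mean of at least 1 CPM, ranked by the lower r of both sets of libraries. The points share library depth and tissue composition. The highest of 14793 values of r can be large among unrelated genes too, and no reference level was computed. Gimap4 was followed most closely by Trim30a (r = 0.90 over 20 and 0.80 over 19 libraries), Icosl (0.88 and 0.77) and Irf7 (0.87 and 0.73). For Tbx2 they were Gmpr2 (0.89 and 0.88), Crtap (0.87 and 0.87) and Fcgrt (0.86 and 0.85), and for Serpinf1 Anxa6 (0.83 and 0.85), Pim2 (0.82 and 0.81) and Alx4 (0.81 and 0.84). The nearest to Gpx3 were Fam234a (0.81 and 0.82), Sorbs3 (0.80 and 0.80) and Comtd1 (0.79 and 0.79), and to Ehd4 Rai14 (0.79 and 0.82), 1700013F07Rik (0.79 and 0.78) and Tpp1 (0.75 and 0.73). No gene was named for more than 1 of the 5.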

How the data were processed

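Poly(A) RNA of 20 mouse hippocampi was sequenced as stranded, single-end libraries. The authors aligned the reads with STAR to GRCm38 (mm10, GENCODE M20 per the methods), ran FastQC 0.11.5, and deposited raw counts per gene, with genes of low total left out. Which strand column was counted is not given in the sources used here. Groups followed the sample labels, and the labels do not state whether replicates share a litter or day. The 5 genes and the lists were chosen with earlier results of these data known.

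Counts of 25190 genes were normalized by TMM and fitted once over the 4 groups with edgeR 4.0.16 (glmQLFit with robust estimation, glmQLFTest) in R 4.3.3, with Benjamini-Hochberg adjustment over all genes, and DESeq2 1.42.0 was an alternative. Log2 CPM used a prior count of 2. Exact permutation tests were enumerated in Python 3.11.15 with NumPy 2.4.6. Positions and exon lengths came from GENCODE M21. The rule for named genes took the 5 genes, for each the 3 genes of highest within-group correlation, and from each family list up to 3 genes past the threshold in Pool 2 against Control. Single markers, genes that missed the threshold and the GIMAP and T-box relatives named beside them were picked after their values were seen. The fits were also run on simulated counts that held no outlying mouse and no shift in tissue composition, so that run does not check them under such conditions.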

Additional observations from a re-analysis of the deposited data

Results flagged for a closer look

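In each of the 5 genes and 4 groups, the gap between the most extreme mouse and its nearest neighbour was compared with the range of the group, at Dixon's critical value of 0.71 for 5 mice. Of these 20 sets, 2 passed it, and chance gives about 1 in 20 where the values did not choose the genes. Gimap4 was at 3.66 CPM in Pool 2 replicate 1, against 0.543 to 1.00 CPM in the other 4 mice, a gap of 0.853 of the range. Since the gene was chosen for high values in Pool 2, that chance rate does not hold for it. Tbx2 was at 2.66 CPM in Pool 1 replicate 5, against 1.55 to 1.82 CPM in the other 4, a gap of 0.758 of the range.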

How the results depend on the processing

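Each fold change of the 5 genes was computed under 28 alternatives. In Pool 2 against Control all 140 values kept their direction and moved by less than the spread between replicates. This comparison chose the genes and the alternatives reuse the same mice, so a kept direction gives it no support. Leaving out 1 library at a time gave 0.54 to 0.70 for Ehd4, 1.41 to 1.63 for Gpx3, 1.61 to 2.94 for Gimap4, 0.65 to 0.77 for Serpinf1 and 0.65 to 0.93 for Tbx2. In Pool 1 against Vehicle, 127 of 140 values kept their direction and their side of the threshold. Leaving out 1 library gave −0.31 to −0.16 for Ehd4, which passed the threshold without Vehicle replicate 3 (−0.31), −0.37 to 0.22 for Gpx3, −0.80 to −0.48 for Gimap4, −0.15 to 0.13 for Serpinf1 and −0.04 to 0.19 for Tbx2. Gpx3 turned positive without Vehicle replicate 1 (0.22) or Pool 1 replicate 1 (0.05), and Tbx2 negative without Pool 1 replicate 5 (−0.04). Serpinf1, at −0.00299, turned positive with DESeq2 (0.00580), DESeq2 size factors (0.00561) and filterByExpr (0.03), and without Vehicle replicates 1 (0.02) or 5 (0.07), Control replicate 4 (0.00225) or Pool 1 replicates 2 (0.13), 3 (0.02) or 4 (0.03). Serpinf1 in Pool 1 against Control ranged from −0.27 without Pool 1 replicate 5 to 0.01 without Pool 1 replicate 2. The causes were not tested.

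Counts of list genes higher in Pool 2 than in Control moved by over 1.5 times without Pool 2 replicate 1 for EHD partners (1 to 0), GIMAP (1 to 0), fibroblasts (2 to 4), endothelium (4 to 1), microglia (5 to 0), lymphocytes (6 to 2), reactive astrocytes (10 to 3) and interferon response (15 to 4). Without Vehicle replicate 4 as well, an alternative added after seeing the data, these counts were 0, 0, 5, 1, 0, 2, 4 and 4. DESeq2 gave 4 fibroblast genes. A minimum mean count of 10 left only 3 of 7 GIMAP genes, of which 0 were higher, and 3 of 14 lymphocyte genes, of which 1 was higher.

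Replicate numbers are shared by the groups in the labels, but only 2 of 20 libraries correlated best with a library of their own number. With the replicate number as a block, Pool 2 against Control gave 0.63 for Ehd4, 1.53 for Gpx3, 2.30 for Gimap4, 0.71 for Serpinf1 and 0.79 for Tbx2, and Pool 1 against Vehicle gave −0.23, −0.07, −0.56, −0.02 and 0.10. Over all genes, the block gave 1 gene with an adjusted p under 0.05 in edgeR in Pool 2 against Control and 1 in Pool 1 against Control, and none in the other 4 comparisons. Depth limits Gimap4, whose Control counts of 3 to 13 lie near the floor of 3 counts.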
